A study of Mus musculus with 21 samples.

Results

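7 mouse genes, Gphn, Cdk8, Camk1d, Cmss1, Filip1l, Lars2 and Jarid2, carried a PSME3 peak inside the gene that recurred in CUT&RUN libraries of C2C12 cells, in all 7 PSME3 libraries for 6 of the genes and in 5 for Jarid2. The genes were chosen with earlier results of these data known, as those with a peak inside the gene span of the GRCm38 annotation and more than 1 kb from either end, and for Lars2 with a peak on the gene or within 1 kb of it. They were thus selected on the presence of called PSME3 and H3K4me3 peaks in these lists, and that presence is described without a test. Cmss1 and Filip1l overlap on opposite strands and share 1 interval, so the 7 genes held 6 sites, of 4041 merged PSME3 sites in the 7 libraries of this antibody. The label of recurrence in every preparation held only for PSME3 and only for 5 of the 6 sites. The Jarid2 site was missing from both day 2 libraries of fresh cells, and none of the 6 sites was listed in all 7 H3K4me3 libraries.

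The study profiled C2C12 cells, a mouse myoblast line with no label for an altered genotype, to ask where PSME3 lies on chromatin before and during differentiation. Cycling cells were grown in DMEM with 20% FBS and were frozen native in FBS with 10% DMSO, with 3 replicates per antibody. Day 2 cells had been at confluency in 2% horse serum for 48 h and came in 4 preparations with 1 library per antibody each, namely frozen or fresh and, in either case, native or crosslinked, where crosslinked cells received 0.1% formaldehyde for 5 min before any freezing. Of the 21 samples, 14 entered here, and the 7 IgG controls were not analysed here, so no interval could be set against the control antibody. Each library was available as its list of called peaks, with a fold enrichment over the local background that the peak caller estimated and the -log10 of a q-value. No read numbers come with the lists, which leaves the depth of each library unknown, and a fold enrichment or a q-value is best read within its own list. The PSME3 lists held 1200, 776 and 3070 peaks in cycling replicates 1, 2 and 3, and 186, 77, 23 and 18 peaks in the frozen native and crosslinked and the fresh native and crosslinked day 2 libraries, an order kept throughout. The H3K4me3 lists held between 14372 and 40999 peaks, the longest being that of cycling replicate 2. Of the myoblast markers, Myf5 and Des had H3K4me3 at the gene start in 7 of 7 libraries, and Myod1 on or within 1 kb of the gene in 7 of 7, whereas Ptprc and Alb, genes of leukocytes and liver, had it at the gene start in 0 of 7.

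PSME3, also called PA28 gamma or REG gamma, is the nuclear activator ring of the 20S proteasome, which opens the proteasome chamber without ATP or ubiquitin. H3K4me3 is a histone mark found at the starts of active genes, where it covers the nucleosomes that flank the transcription start, and it is not typical of the inside of long genes. In CUT&RUN an antibody brings a nuclease to its target inside permeabilised cells, and the short DNA fragments released by the cut are sequenced, and peaks are called where they pile up.

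The 6 sites were short intervals in the interior of long genes or, for Lars2, next to the end of the gene. Gphn encodes gephyrin, the scaffold that holds glycine and GABA receptors at inhibitory synapses and that also makes the molybdenum cofactor. The gene spans chr12:78217325-78684772 on the plus strand, and its site, chr12:78350895-78351136, lay 124 kb downstream of the annotated start. Cdk8 encodes the kinase of the Mediator kinase module. It was the shortest of the 7 genes at 72.1 kb, spanning chr5:146230795-146302874 on the plus strand, with its site at chr5:146260989-146261356, 29.9 kb from the start. Camk1d encodes a calcium and calmodulin dependent kinase. It spans chr2:5293457-5714860 on the minus strand, with its site at chr2:5379040-5379381, 297 kb from the nearer of its 2 annotated starts. Cmss1, named for a homolog of a small ribosomal subunit factor, spans chr16:57301999-57606867 on the minus strand, and Filip1l, which encodes a filamin A interacting protein, spans chr16:57353277-57572804 on the plus strand. Their common site, chr16:57391253-57391669, lay 215 kb from the start of Cmss1 and 38.2 kb from the outer start of Filip1l. Lars2 encodes the mitochondrial leucyl-tRNA synthetase. It spans chr9:123366927-123462675 on the plus strand, with its site at chr9:123461794-123462194, 481 bp from the gene end and thus inside the 1 kb margin that the other genes had to clear. Jarid2 encodes an accessory subunit of the Polycomb repressive complex PRC2. It spans chr13:44730774-44921643 on the plus strand, with its site at chr13:44869566-44870011, 139 kb from the nearer of its annotated starts. No annotated promoter window (250 bp before to 50 bp after a start) covered any of the 6 sites, and Cmss1 and Filip1l was the only pair of overlapping genes at a site. Genome sequence was at hand for annotated promoter windows only. The bases of the sites, the exon or intron they lie in and any repeat annotation were therefore not analysed here. Whether reads at these intervals also match other parts of the genome, and whether the intervals are on a list of regions to be excluded, were not analysed here either, so a listed peak is a called interval and not an established place of contact.

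PSME3 was listed at the sites in 40 of 42 combinations of site and library. All 7 genes had a PSME3 peak inside the gene, by the rule, in the 3 cycling libraries and in both frozen day 2 libraries, and 6 of the 7 genes had one in each fresh library. With the margin of 1 kb applied to Lars2 as well, as it is in the shares of all genes that follow, these counts were 6 and 5. Of the 32948 annotated genes long enough to hold an interval more than 1 kb from both ends, the share with such a peak was 1.2%, 0.665% and 2.4% in cycling replicates 1, 2 and 3, 0.121% in frozen native, 0.0728% in frozen crosslinked, 0.0304% in fresh native and 0.0212% in fresh crosslinked cells. In all 7 PSME3 libraries, 6 genes (0.0182%) kept a shared site by the rule of 1 kb, namely Gphn, Cdk8, Camk1d, Cmss1, Filip1l and the predicted gene Gm36876. Among protein-coding genes this share was 0.0259%, and among genes at least as long as Cdk8 it was 0.123%. Since the genes were chosen by recurrence, nothing is read from these shares. The authors' pooled PSME3 list of cycling cells held all 6 sites, and 5.0% of genes had an intragenic peak in it.

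The sites made up a growing share of the PSME3 lists as the lists became shorter. They were 6 of 1200, 6 of 776 and 6 of 3070 peaks in the cycling libraries (0.5%, 0.773% and 0.195%). They were 6 of 186 peaks in frozen native cells (3.23%) and 6 of 77 in frozen crosslinked cells (7.79%). In fresh native cells they were 5 of 23 peaks (21.7%), and in fresh crosslinked cells 5 of 18 (27.8%). Since the genes were chosen for a peak in these lists, the near constant number of sites, and with it the larger share of the shorter lists, follows from the choice.

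The significance of the PSME3 peak at each site differed between libraries. At Cmss1 and Filip1l, the -log10 q was 87.4, 130 and 326 in cycling replicates 1, 2 and 3, and 134, 70.4, 36.9 and 16.8 in frozen native and crosslinked and in fresh native and crosslinked day 2 cells. At Lars2, in the same order, it was 61.5, 98.8 and 259 in cycling cells and 204, 81.8, 45.9 and 25.3 in day 2 cells. These were the strongest of the 6 sites by this measure, and at both the frozen native library stood above the other day 2 libraries. At Cdk8, the -log10 q was 44.1, 91.0 and 226 in cycling replicates 1, 2 and 3, and 61.1, 26.6, 18.7 and 15.5 in the day 2 libraries. At Camk1d, it was 42.2, 39.1 and 136 in cycling cells and 98.4, 40.2, 14.1 and 7.15 in day 2 cells. Cycling replicate 3 was again the highest library at each of these sites, and fresh crosslinked cells the lowest. At Gphn, the weakest site present in all libraries, the -log10 q was 9.23, 14.9 and 33.9 in cycling cells and 35.5, 16.6, 9.81 and 5.63 in day 2 cells. At Jarid2, it was 43.5, 48.2 and 52.5 in cycling cells, 18.4 and 21.5 in frozen cells, native and crosslinked, with no peak listed in either fresh library. At the 5 sites present in all libraries the order of the day 2 libraries was the same, from frozen native over frozen crosslinked and fresh native to fresh crosslinked, which was also the order of the lengths of their lists. Each day 2 preparation had 1 library, so this order has no replicate check, and depth and preparation cannot be told apart in it.

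**Figure D1:**
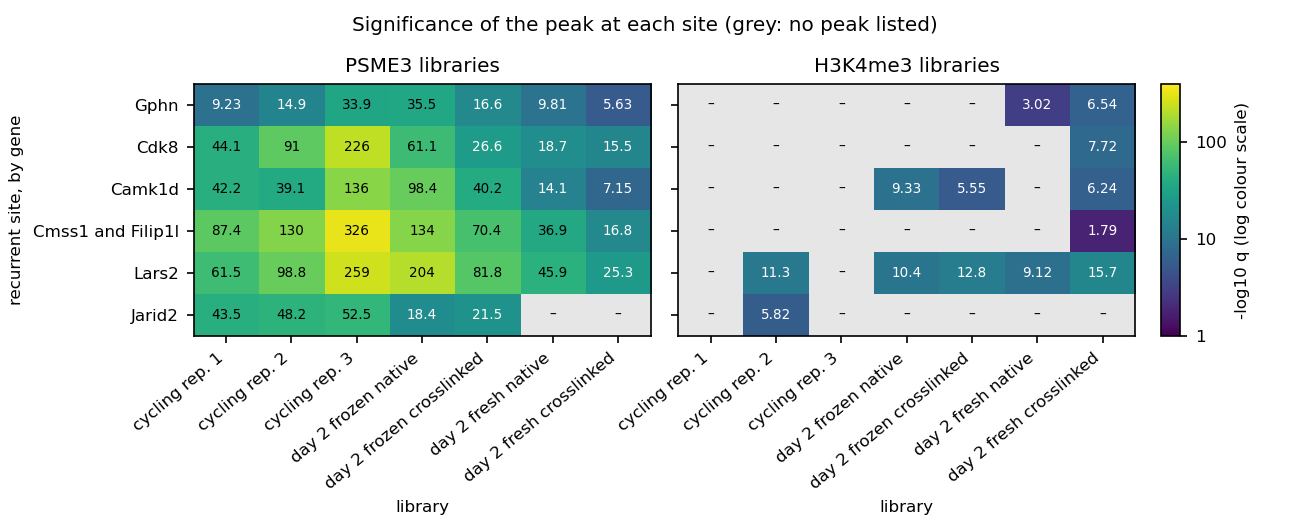
Significance of the called peak at the 6 sites (rows) in the 7 PSME3 libraries (left) and the 7 H3K4me3 libraries (right), as -log10 q on a log colour scale with the value printed in each cell and grey where no peak was listed. The PSME3 panel is filled but for Jarid2 in the 2 fresh libraries, whereas the H3K4me3 panel is filled in 13 of 42 cells.

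The fold enrichment of PSME3 at the sites ordered the libraries differently, with frozen native cells and not cycling replicate 3 highest at Camk1d, Lars2 and the site of Cmss1 and Filip1l. At Jarid2 the fold was 19.3, 8.82 and 8.22 in cycling replicates 1, 2 and 3, 6.52 and 7.79 in frozen cells, native and crosslinked, and the value of cycling replicate 1 was the highest of all its 1200 peaks. At Camk1d the fold was 9.82, 5.32 and 9.38 in the cycling libraries and 16.9, 7.34, 4.08 and 3.10 in frozen native and crosslinked and in fresh native and crosslinked cells. The frozen native value at Camk1d was the highest of the 186 peaks of that list. At Cmss1 and Filip1l the fold was 7.64, 7.38 and 12.8 in cycling and 13.1, 6.46, 5.43 and 3.59 in day 2 libraries. At Lars2 it was 5.89, 5.26 and 9.57 in cycling and 13.8, 6.09, 5.10 and 3.73 in day 2 libraries. Fold enrichment is not on 1 scale across libraries of unknown depth, and each day 2 value comes from 1 library. No share of all PSME3 sites was taken for any order of cycling and day 2 values, so no difference between stages is read from them. At Cdk8 the fold was 5.17, 5.45 and 10.4 in cycling and 7.45, 3.76, 3.68 and 3.54 in day 2 libraries. At Gphn it was 6.53, 5.24 and 5.51 in cycling and 10.2, 5.92, 5.34 and 5.46 in day 2 libraries. Gphn thus varied least among the cycling replicates, with a mean fold of 5.76 ± 0.681 (SD, n = 3), and Jarid2 varied most, with 12.1 ± 6.25 (SD, n = 3).

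Within its own list, the place of a site by q-value and by fold enrichment often differed. Ranked by q-value, the PSME3 peak at a site was between rank 2 and rank 24 of its list, and 39 of the 40 peaks were at rank 15 or better. Ranked by fold enrichment, 28 of the 40 were at rank 15 or better and the lowest was rank 265. Lars2 took ranks 4, 5 and 5 by q-value in the cycling libraries and 2, 2, 3 and 2 in the day 2 libraries, against 114, 44 and 6 and 5, 8, 7 and 4 by fold. Cmss1 and Filip1l took ranks 2, 3 and 3 by q-value in the cycling libraries and 6, 4, 6 and 5 in the day 2 libraries. The interval at Cdk8 was at rank 265 by fold but at rank 7 by q-value in cycling replicate 1. Gphn held ranks 24, 15 and 13 by q-value and 60, 47 and 59 by fold in the cycling libraries, but ranks 13, 13, 14 and 11 by q-value and 12, 11, 6 and 2 by fold in the day 2 libraries, where fold gave the better rank in all 4. In total, 20 of the 40 peaks had the better rank by q-value, 15 had the better rank by fold and 5 had equal ranks. The better rank by fold prevailed at Camk1d, with ranks 5, 40, 7, 1, 3, 9 and 9 by fold against 9, 11, 9, 8, 7, 11 and 9 by q-value, and at Jarid2, with ranks 1, 3, 8, 30 and 2 against 8, 10, 12, 15 and 12. Position in the list thus depended on the measure, with the widest gap at Cdk8.

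**Figure D2:**
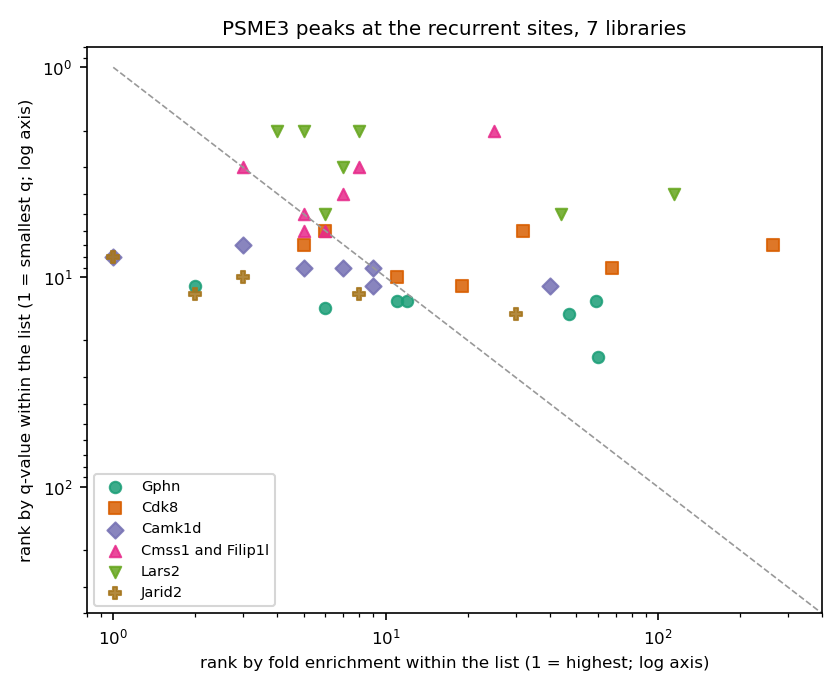
Rank of the PSME3 peak at each site within its own list by fold enrichment (x axis) and by q-value (y axis), both on log axes with rank 1 as the strongest peak, 1 symbol per library. All points lie between rank 2 and rank 24 by q-value while they spread from rank 1 to rank 265 by fold, and the dashed line marks equal ranks.

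The called intervals were nearly superimposed across libraries, often at 1 edge. At Camk1d the 7 PSME3 peaks ended within 6 bp of each other, while their starts, at 5379154, 5379146, 5379047, 5379040, 5379063, 5379146 and 5379148 on chromosome 2 in the library order given above, were spread over 114 bp. At Cmss1 and Filip1l the ends lay within 9 bp, and the starts were spread over 131 bp. At Jarid2 the 5 starts lay within 9 bp, and the ends were spread over 291 bp, since the peaks of cycling replicates 2 and 3 were 438 and 446 bp wide and those of the other 3 libraries 151, 170 and 203 bp. These sites thus had 1 edge that was nearly fixed and 1 that moved. At Gphn the starts lay within 19 bp and the ends within 72 bp, so that all 7 peaks shared a core of 151 bp. At Cdk8 the starts lay within 44 bp and the ends within 168 bp, the widths being 350, 355 and 368 bp in cycling and 354, 345, 282 and 156 bp in day 2 libraries. At Lars2 the starts lay within 64 bp and the ends within 82 bp. The PSME3 peaks at the sites were 151 to 446 bp wide in all. At 4 of the 6 sites the less variable edge moved by at most 20 bp, and at the other 2 sites by 44 and 64 bp.

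**Figure D3:**
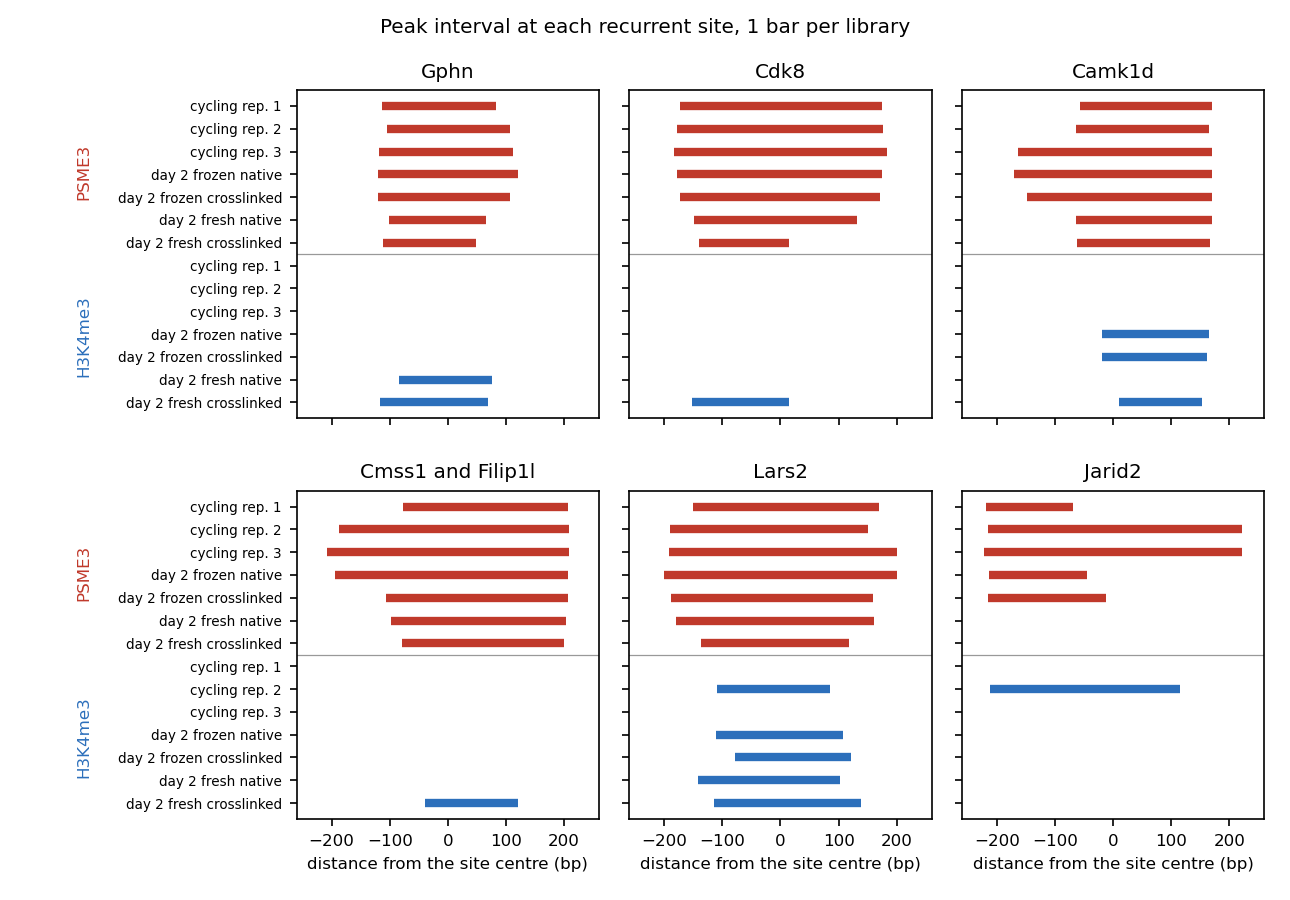
Extent of the called peak at each site in bp from the centre of the merged site, with 1 bar per library, PSME3 in red above the line and H3K4me3 in blue below it. The right edge at Camk1d and at Cmss1 and Filip1l and the left edge at Jarid2 fall within 6, 9 and 9 bp across the PSME3 libraries, and the H3K4me3 bars, where present, lie inside the merged PSME3 interval.

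H3K4me3 was listed at the sites in 13 of 42 combinations of site and library, in 2 of 18 of the cycling and in 11 of 24 of the day 2 libraries. Both cycling instances came from replicate 2, whose H3K4me3 list of 40999 peaks was the longest. The Lars2 site had an H3K4me3 peak in 5 libraries, with a fold of 1.95 in cycling replicate 2 and of 2.45, 2.50, 2.39 and 2.63 in frozen native and crosslinked and in fresh native and crosslinked day 2 cells. The Camk1d site had one in 3 libraries, with a fold of 3.47 in frozen native, 2.68 in frozen crosslinked and 2.32 in fresh crosslinked cells. The Gphn site had one in both fresh libraries, with a fold of 2.84 in native and 4.25 in crosslinked cells. Each of the other 3 sites had H3K4me3 in 1 library only. These were fresh crosslinked cells for Cdk8, with a fold of 2.37, and for Cmss1 and Filip1l, with a fold of 1.66 and a -log10 q of 1.79, and cycling replicate 2 for Jarid2, with a fold of 2.73. The fresh crosslinked H3K4me3 list held 5 of the 6 sites, and Jarid2 was the one it lacked. The authors' pooled H3K4me3 list of cycling cells held 0 of the 6 sites. Without cycling replicate 2, the Jarid2 site was in 0 H3K4me3 libraries and the Lars2 site in 4.

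The H3K4me3 peaks at the sites were small members of long lists. They were 145 to 327 bp wide with a fold of 1.66 to 4.25, and all 13 lay below the middle of their list by fold, at percentiles from 0.0244 for Lars2 in cycling replicate 2 to 46.1 for Gphn in fresh crosslinked cells. Their median percentile was 1.0 by fold and 45.1 by q-value. By q-value they lay between percentiles 20.4 and 75.1, and 12 of the 13 stood at a higher percentile by q-value than by fold. All 13 lay inside the merged PSME3 interval, and 9 of 13 lay inside the PSME3 peak of the same preparation. In all 13 cases PSME3 was listed in the same preparation, which the choice of the sites for PSME3 nearly fixed. A peak inside the gene by the rule was found for 5, 7 and 6 of the 7 genes in the H3K4me3 lists of cycling replicates 1, 2 and 3, against 11.5%, 25.1% and 12.5% of all genes. In the day 2 lists, in the order above, it was found for 5, 5, 6 and 6 genes, against 9.45%, 13.8%, 8.83% and 13.6% of all genes. In the pooled H3K4me3 list it was found for 7 genes, against 15.4%. Lars2 was counted in every one of these lists through the wider rule, which takes in the peak at its own start, whereas the shares of all genes use the margin of 1 kb. With that margin for Lars2 too, the counts were 4, 6 and 5 in the cycling lists, 4, 4, 5 and 5 in the day 2 lists and 6 in the pooled list. The counts also include peaks away from the recurrent sites, among them the start of Gphn at position 78226655 and the inner start of Filip1l at position 57549242, which both lie more than 1 kb inside the gene span that the annotation gives. Of the 32948 genes in these shares, 4050 were at least as long as Cdk8, and no share among those was taken for H3K4me3. The rule that chose the genes also counted such peaks, so nothing is read from these counts.

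H3K4me3 at the starts of the same genes was listed throughout. All 7 genes had an H3K4me3 peak within 1 kb of an annotated start in all 7 H3K4me3 libraries, against 38.1% of the 27025 genes with an annotated promoter window. The rule that chose the genes also counted the start peaks of Lars2, Gphn and Filip1l. The choice thus partly fixed this number, and nothing is read from its distance to the share of all genes. The peak at the start of Jarid2 was the broadest, with a median width of 5457 bp and a range of 5089 to 5925 bp, and it stood at a median percentile of 97.8 by fold. At Filip1l the median width was 3524 bp, at Cdk8 3454 bp and at Gphn 3240 bp. At Cmss1, Camk1d and Lars2 it was 1593, 1587 and 1451 bp. The fold at the start of Jarid2 ranged from 13.6 to 31.2 in cycling and from 9.61 to 27.3 in day 2 libraries, with overlapping ranges. At Camk1d the H3K4me3 fold at the start was 14.8, 7.35 and 16.6 in cycling replicates 1, 2 and 3, and 7.72, 5.38, 3.14 and 4.74 in frozen native and crosslinked and in fresh native and crosslinked day 2 cells. As a percentile of its list, this peak stood at 58.8 to 79.4 in cycling and at 21.3 to 48.8 in day 2 libraries, so that the ranges did not overlap. This held for 1 of the 7 genes, against 16.5% of the 10292 genes with H3K4me3 at the start in all 7 libraries, a share near that of the members, and 0.923% of those genes stood lower in all cycling than in all day 2 libraries. Preparation and stage cannot be told apart in that difference for 3 of the 4 day 2 libraries, and the frozen native library, prepared as the cycling cells were, stood at 33.9. For the other 6 genes the percentile ranges of cycling and day 2 libraries overlapped.

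2 of the genes have an annotated start with H3K4me3 and another without. Filip1l had H3K4me3 in 7 of 7 libraries at its inner start, position 57549242, and in 0 of 7 at its outer start, position 57353277, which is the one nearer to the recurrent site. Camk1d had it in 7 of 7 libraries at its outer start, position 5714762, and in 0 of 7 at its inner start, position 5676046, which is the one nearer to its site. The 250 bp before each of these starts, and before the start of Gphn and the inner start of Jarid2, which a PSME3 peak of cycling replicate 3 overlapped, are printed here from RefSeq (GRCm38.p6), 5′ to 3′ on the strand of the gene, with every CG dinucleotide in capitals. CG is its own reverse complement, so both strands hold the same matches, and 92.1% of the 32851 annotated promoter windows hold at least 1 in this stretch, with a median of 6.
Filip1l inner start, plus strand, chr16:57548992-57549241: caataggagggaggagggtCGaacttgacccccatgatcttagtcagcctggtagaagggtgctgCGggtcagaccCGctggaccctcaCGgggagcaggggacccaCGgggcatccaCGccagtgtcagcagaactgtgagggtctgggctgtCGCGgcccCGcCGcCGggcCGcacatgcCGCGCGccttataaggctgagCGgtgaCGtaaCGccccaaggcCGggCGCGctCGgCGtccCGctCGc
Filip1l outer start, plus strand, chr16:57353027-57353276: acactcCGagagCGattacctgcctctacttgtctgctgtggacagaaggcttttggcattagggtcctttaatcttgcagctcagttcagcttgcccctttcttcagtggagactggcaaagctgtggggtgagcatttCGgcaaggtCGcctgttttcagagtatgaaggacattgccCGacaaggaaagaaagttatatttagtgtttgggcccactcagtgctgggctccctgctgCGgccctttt
Camk1d outer start, minus strand, chr2:5714763-5715012: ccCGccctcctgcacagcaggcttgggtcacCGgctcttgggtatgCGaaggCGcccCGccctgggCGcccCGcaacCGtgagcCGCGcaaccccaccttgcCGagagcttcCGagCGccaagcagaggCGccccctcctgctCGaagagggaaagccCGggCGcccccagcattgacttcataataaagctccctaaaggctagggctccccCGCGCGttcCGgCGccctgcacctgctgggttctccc
Camk1d inner start, minus strand, chr2:5676047-5676296: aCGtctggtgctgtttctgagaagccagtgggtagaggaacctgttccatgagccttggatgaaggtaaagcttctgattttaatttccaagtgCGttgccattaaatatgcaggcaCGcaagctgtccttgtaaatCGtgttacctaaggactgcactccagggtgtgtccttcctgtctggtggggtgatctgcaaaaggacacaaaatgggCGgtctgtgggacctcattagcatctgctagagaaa
Gphn start, plus strand, chr12:78226405-78226654: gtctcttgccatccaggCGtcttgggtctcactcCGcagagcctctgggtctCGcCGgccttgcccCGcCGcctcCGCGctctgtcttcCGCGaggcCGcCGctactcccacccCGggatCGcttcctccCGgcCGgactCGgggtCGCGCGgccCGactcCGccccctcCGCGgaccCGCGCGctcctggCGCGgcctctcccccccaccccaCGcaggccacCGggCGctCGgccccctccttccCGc
Jarid2 inner start, plus strand, chr13:44731021-44731270: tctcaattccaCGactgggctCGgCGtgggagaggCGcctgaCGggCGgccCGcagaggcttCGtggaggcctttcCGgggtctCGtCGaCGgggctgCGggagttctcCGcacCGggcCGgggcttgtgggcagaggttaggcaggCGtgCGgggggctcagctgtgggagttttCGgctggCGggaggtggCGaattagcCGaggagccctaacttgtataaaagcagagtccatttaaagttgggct

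The marked Filip1l start held 25 CG in these 250 bp and the unmarked one 6, and 10.7% and 50.4% of all promoter windows held at least as many. At Camk1d the marked start held 22 and the unmarked start 5, with 14.8% and 55.6% of windows at or above these numbers. The start of Gphn held 34, reached by 3.53% of windows, and the inner start of Jarid2 22, reached by 14.8%. The remaining starts with H3K4me3 held 25 (Cdk8), 15 (Lars2), 14 (Cmss1) and 23 (outer start of Jarid2). The starts without H3K4me3 thus had the lowest numbers of the 10 annotated starts of these genes, as a description of letters only.

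PSME3 was found at the starts of 2 of the 7 genes in cycling replicate 3, which had the longest PSME3 list, where 8.55% of all genes had such a peak. These genes are too few for a comparison with that share, and neither peak had a q-value of at most 0.01. At Gphn this peak, chr12:78226099-78226836, had a fold of 3.10 and a -log10 q of 1.31, and at Jarid2 the peak chr13:44731023-44731233 had a fold of 3.43 and a -log10 q of 1.89. Both were weaker than the PSME3 peak at the recurrent site of the same gene in the same library, where the fold was 5.51 at Gphn and 8.22 at Jarid2. In the other 6 PSME3 libraries 0 of the 7 genes had a peak at the start, where 2.65% and 2.29% of genes had one in cycling replicates 1 and 2, 0.603% in frozen native, 0.2% in frozen crosslinked and 0.0037% in each fresh library. The pooled PSME3 list of cycling cells also had a peak at the starts of Gphn and Jarid2, with a fold of 2.72 and 2.89, against 13.6% of all genes. That list held a further peak inside Jarid2, chr13:44733273-44733913, 2499 bp from the gene start, with a fold of 3.26 and a -log10 q of 2.94.

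The H3K4me3 peaks at the gene starts were wider than the PSME3 and H3K4me3 peaks at the recurrent sites. In the cycling libraries, the H3K4me3 peak at the gene start exceeded the PSME3 peak at the recurrent site by 4.22 ± 0.83 on the log2 scale at Jarid2 and by 4.09 ± 0.10 at Gphn (SD of the replicate differences, n = 3). The difference was 3.41 ± 0.34 at Filip1l, 3.35 ± 0.036 at Cdk8, 2.85 ± 0.31 at Camk1d, 2.84 ± 0.15 at Cmss1 and 2.35 ± 0.072 at Lars2 (log2 width, SD, n = 3). H3K4me3 peaks were the wider ones in general, with median widths of 1781, 662 and 1784 bp over the whole lists of cycling replicates 1, 2 and 3, against 241, 293 and 397 bp for PSME3, so antibody and place cannot be told apart in this difference, and no call was made from it. This comparison was chosen after the data were seen, since no site had H3K4me3 in all 3 cycling replicates, and it sets 1 antibody at the start against another at the site. Within PSME3 alone, the peak at the start in cycling replicate 3 was 738 bp wide at Gphn, against 232 bp at its site, and 211 bp wide at Jarid2, against 446 bp at its site. Within H3K4me3 alone, a start peak and a site peak were listed in the same library in 14 combinations of gene and library, and the start peak was wider in 14 of 14, by 4.4 to 25.1 times, and had the higher fold in 14 of 14, by 2.01 to 6.75 times. Cmss1 and Filip1l share a site peak, so these combinations rest on 13 site peaks. The share of all genes with a wider and higher start peak was not computed, so nothing particular to these genes is read from the count. The closest pair in width was Lars2 in fresh native cells, with 1079 bp at the start and 245 bp at the site, and the farthest was Filip1l in fresh crosslinked cells, with 4048 bp and 161 bp. The closest pair in fold was Camk1d in frozen crosslinked cells, with 5.38 at the start and 2.68 at the site.

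**Figure D4:**
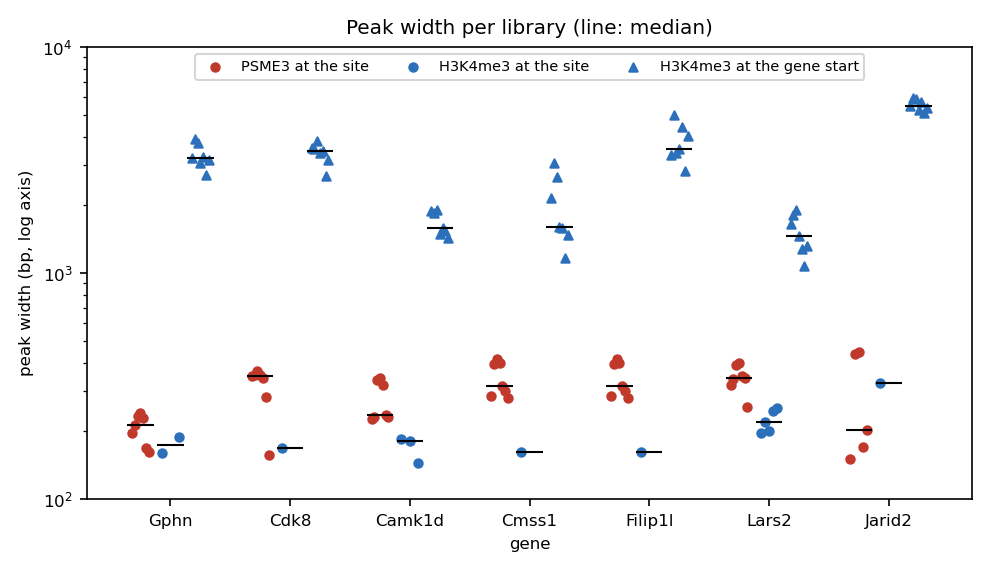
Width in bp (log axis) of the called peak in each library for the 7 genes, with red circles for PSME3 at the recurrent site, blue circles for H3K4me3 at the site, blue triangles for H3K4me3 at the gene start and a black line at each median. The triangles, from 1079 to 5925 bp, lie above all circles, which run from 145 to 446 bp, and Cmss1 and Filip1l repeat the same site.

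Beyond the recurrent sites and the annotated starts, the 7 genes held 14 other places with a peak inside the gene, 9 of them in 1 library only. In single libraries 1 of the 14 had PSME3, at chr2:5613904-5614946 in Camk1d, in cycling replicate 1. In Camk1d, H3K4me3 was listed in 6 libraries at chr2:5381187-5383016, with a fold of 2.47 to 4.17, 1806 bp from the recurrent site. In Cmss1 and Filip1l it was listed in 6 libraries at chr16:57418876-57421775, with a fold of 2.67 to 5.75, 27207 bp from the site, and the pooled PSME3 list of cycling cells had a peak within this place, at chr16:57419394-57419606, with a fold of 3.23 and a -log10 q of 2.24. In Jarid2 it was listed in the 3 cycling libraries and in no day 2 library at chr13:44839909-44841067, with a fold of 2.56 to 3.64. Its -log10 q there was 1.29, 1.54 and 3.61 in cycling replicates 1, 2 and 3. The share of all places inside genes with this split was not computed, so no difference between stages is read from it. PSME3 was listed at none of these 3 places in any single library.

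The pattern was set beside 14 relatives and partners of the 7 genes, a list named by function. None of them had a PSME3 peak inside the gene in any of the 7 PSME3 libraries, and 0.0212% to 2.4% of all genes had one per library, so the count is near the background. They are Lars, the cytosolic leucyl-tRNA synthetase, the Mediator kinase module members Cdk19, Ccnc, Med12 and Med13, the calcium and calmodulin dependent kinases Camk1, Camk1g and Camk4, Filip1, the molybdenum cofactor genes Mocs1 and Mocs2, and the PRC2 core genes Ezh2, Eed and Suz12. Of the 11 with an annotated promoter window, 9 had H3K4me3 at the start in all 7 libraries, and Camk1g and Filip1 in 4. Among all genes with such a window, 38.1% had it in all 7. PSME3 was at the start of Ccnc and of Suz12 in 1 library each, against 0.0037% to 8.55% of all genes per library. Inside the gene, H3K4me3 was listed in 7 libraries for Cdk19, in 4 for Filip1 and in 1 each for Med13, Camk4, Mocs1 and Suz12. Per library, 8.83% to 25.1% of all genes had such a peak. The relatives differ from the 7 genes in length, from 9.8 kb for Camk1 to 261 kb for Camk4, and no test was made of the difference.

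The sites were set beside all merged PSME3 sites by the number of libraries that listed them. Of the 4041 merged sites, 3201 were in 1 library, 562 in 2, 165 in 3, 68 in 4, 33 in 5, 3 in 6 and 9 in all 7. The shortest list held 18 peaks, so that at most 18 sites could have been in all 7. Of the 12 places in 6 or 7 libraries, 5 were sites of the genes described here. H3K4me3 was listed in all 7 libraries at 1 of these 12, at Fbrs. Of the 33 places in exactly 5 libraries, Jarid2 was the member, and 30 had H3K4me3 in all 7 libraries, all 30 being absent from both fresh PSME3 libraries as Jarid2 was. Jarid2 had the same 5 PSME3 libraries as these 30 places but H3K4me3 in 1. Intervals over mitochondrial genes, also in 5 PSME3 libraries but with both fresh ones among them, had H3K4me3 in 2. At the 30 places with H3K4me3 in all 7 libraries the merged PSME3 intervals had a median width of 913 bp and a lowest width of 292 bp, so that their range overlapped that of the 6 sites, 242 to 446 bp. The less variable edge there moved by a median of 162 bp and by 10 to 730 bp, at most 20 bp at 1 of 30, against 4 of 6 for the sites of the 7 genes. At the other 7 places in 6 or 7 libraries the less variable edge moved by 14 bp at Gm36876, 20 bp at Gm30821, 29 bp at Gm46595, 31 bp over ribosomal RNA, 58 bp at Zc3h7a, 69 bp at a place on chromosome 3 outside genes and 456 bp at Fbrs. Nearly fixed edges were therefore also seen at places outside the 7 genes. Counts of libraries chose the sites, so these values are given as a description.

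**Figure D5:**
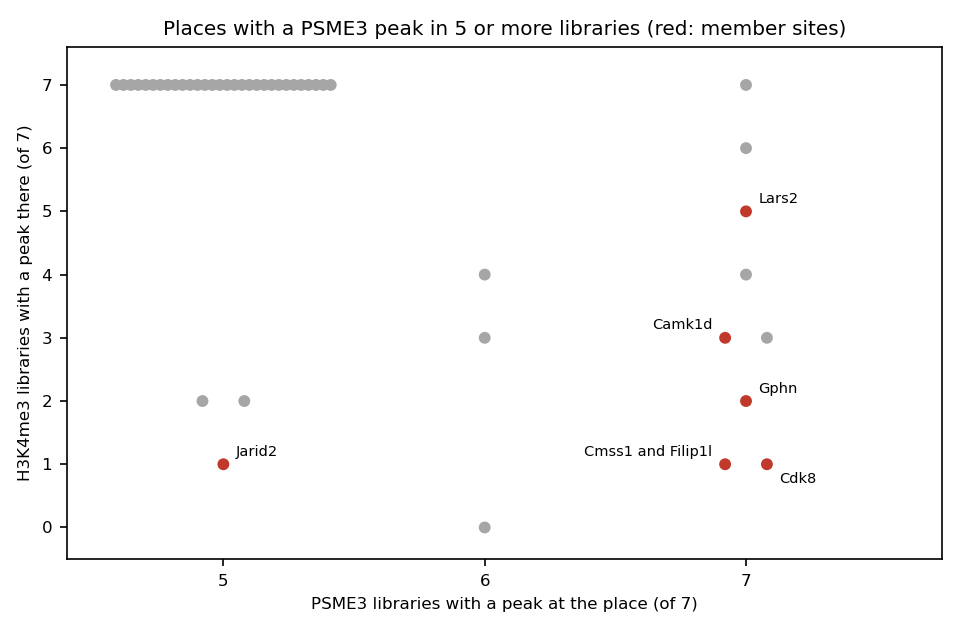
Number of PSME3 libraries (x axis) and of H3K4me3 libraries (y axis) with a peak at each place that had PSME3 in 5 or more of 7 libraries, with the 6 sites of the genes described here in red and the others in grey, spread sideways where they coincide. The 30 places at 5 PSME3 and 7 H3K4me3 libraries stand apart from the red points, which have H3K4me3 in 1 to 5 libraries. Grey points with few H3K4me3 libraries are also seen, among them Gm36876 with 4, Zc3h7a with 3, mitochondrial intervals with 2 and Gm30821 with 0.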

How the data were processed

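CUT&RUN libraries of C2C12 cells were analysed from their deposited peak lists in BED format. Per the submitters' processing notes and the paper's methods, the authors trimmed reads with Trim Galore, aligned them to mm10 with Bowtie2 and called peaks with MACS2, whose versions, options and control library are not given in the sources used here. The deposited lists have no header. The authors list, for every peak, its fold enrichment (a ratio to the estimated background), the -log10 of the p-value and of the q-value, and a score, which is 10 times the -log10 q-value cut to a whole number. All listed q-values were under 0.1. The pooled lists are the authors' own calls on the 3 cycling replicates together.

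The 7 genes and all lists were chosen with earlier results of these data known. Genes were named as the 7 members, the 14 relatives and at most 10 others with a site in at least 6 PSME3 libraries. Spans, strands and promoter windows came from RefSeq tables of GRCm38.p6, the assembly on which mm10 is based. Intervals are 1-based, peaks sharing at least 1 bp formed a site, and a gene start counted as marked when a peak lay within 1 kb. Widths were compared by exact permutation tests in Python 3.11.15 (scipy 1.17.1, pandas 2.3.3, numpy 2.4.6), and plots were drawn with matplotlib 3.10.9. The rules for merging peaks and for peaks inside a gene were tested on simulated peaks. The paper calls the cycling replicates biological. The result of 1 marker gene is not reported here.

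Replicate numbers are shared by both antibodies. Over 19 autosomes, the deviation of the log2 share of peaks from the replicate mean correlated between both antibodies with a Pearson r of 0.540 in replicate 1, 0.555 in replicate 2 and 0.275 in replicate 3, so the numbers were taken to pair them. Between PSME3 replicate 1 and H3K4me3 replicate 3 r was 0.522, so the measure does not tell these replicates from each other. The tests of site width and of the H3K4me3 fold at the site that had been planned for cycling cells could not be made, because no site had an H3K4me3 peak in all 3 cycling replicates, and the comparison of start and site widths took their place.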

Additional observations from a re-analysis of the deposited data

How the results depend on the processing

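Of 119 values recomputed under alternatives, 114 stayed within 1.5 times the value reported or within the spread between libraries, 5 moved and 0 changed direction. With only peaks of a q-value of at most 0.01, the site of Cmss1 and Filip1l was in 0 H3K4me3 libraries in place of 1, and PSME3 was at the starts of the 7 genes in 0 combinations of gene and library in place of 2. With a replicate left out, the Jarid2 site was in 0 to 1 H3K4me3 libraries, 0 being the value without replicate 2. Among the genes at least as long as Cdk8, the share with a PSME3 site in all 7 libraries was 0.123% in place of 0.0182%. The median percentile of the 13 H3K4me3 peaks at the sites was 45.1 by q-value in place of 1.0 by fold. The other alternatives (a q-value of at most 0.05, a margin or start window of 3 kb, the peak centre in place of the whole peak, an overlap of 50% and protein-coding genes alone) moved no value beyond these limits.

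With the replicate number as a block, the two-sided exact sign-flip test of the log2 width of the H3K4me3 peak at the start minus the PSME3 peak at the site gave p = 0.25 for each of the 7 genes, the smallest it allows, and the test without the block gave p = 0.1, also the smallest it allows, at the same differences of 2.35 (Lars2) to 4.22 (Jarid2). Leaving out 1 replicate gave differences between 2.32 and 4.47 with an exact permutation p of 0.333, so leaving a replicate out tests nothing. The planned comparisons of PSME3 with H3K4me3 width at the site, and of H3K4me3 between start and site in the cycling replicates or in the pooled list, gave no value, since no site had the H3K4me3 peaks they need.

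Without read numbers, a missing peak says only that none was called at the depth of that library. Each day 2 preparation rests on 1 library, and the IgG libraries were not analysed here.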

Other observations

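The other 7 places with PSME3 in 6 or 7 libraries are given as values. Fbrs, at chr7:127477730-127479331, had PSME3 and H3K4me3 in all 7 libraries of each antibody. The interval over AY036118 and the ribosomal RNA gene Rn18s-rs5, chr17:39842997-39848832, had PSME3 in 7 libraries and H3K4me3 in 6. Gm36876, a predicted gene, had PSME3 in 7 libraries and H3K4me3 in 4 at chr11:109011647-109012114, with PSME3 starts within 14 bp and ends within 52 bp. The interval chr3:5860345-5860808, outside any gene of the annotation, had PSME3 in 7 libraries and H3K4me3 in 3, with edges within 69 and 77 bp. Gm46595 had PSME3 in 6 libraries and H3K4me3 in 4 at chr17:70963646-70963891, with edges within 29 and 63 bp. Zc3h7a, which encodes a CCCH zinc finger protein, had PSME3 in 6 libraries and H3K4me3 in 3 at chr16:11143917-11144314, with edges within 58 and 72 bp. Gm30821 had PSME3 in 6 libraries and H3K4me3 in 0, with PSME3 edges within 20 and 80 bp.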
